A study of Mus musculus with 7 samples.

Results

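The genes described here make up the filament and adhesion apparatus of smooth muscle, 34 genes chosen by name for their roles around the actin filament, the myosin light chains, the intermediate filaments, the dense bodies, the membrane plaques and the transcription factors Srf and Myocd. The platform annotation gave 81 probe sets to exactly 1 of these genes, with 22 genes read by several probe sets and 12 by 1. All 34 were found among 18194 genes named in this way, and for each the probe set with the highest mean over the 7 arrays stood for the gene. All 34 passed the filter on low values in each comparison.

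The 3 adult bladders (Theiler stage 28) and the 3 bladders of postnatal day 1 (Theiler stage 27) came from male FVB/N mice that carry SMGA/EGFP, a transgene in which the promoter of Actg2, the smooth muscle gamma-actin gene, drives enhanced green fluorescent protein. The entire bladder was dissected, so urothelium, connective tissue, vessels and nerves were read together with the muscle, and no pooling is stated for the bladders. The reference was 1 array of whole wild-type FVB/N newborns without the transgene, 4 males and 4 females pooled. The title of that sample speaks of bladders, but its source and its protocol are those of entire animals. All samples went through 2 rounds of amplification before hybridization to Affymetrix mouse 430 arrays. Storage differed with stage, with liquid nitrogen for adult and a freezer for newborn bladders, and the effects of each cannot be told apart. Nothing states that replicates came from separate litters or extractions beyond being separate samples, so p-values measure only the spread between these samples.

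Smooth muscle shortens when myosin pulls on actin filaments that are tied to dense bodies in the cytoplasm and to adhesion plaques at the membrane. Calcium and calmodulin switch on a kinase that phosphorylates the myosin light chain, a phosphatase reverses this, and desmin filaments link the dense bodies into a network. In the bladder wall these cells form the detrusor, which must stretch as urine is stored and contract as it is voided. Many genes of the apparatus are textbook targets of Srf, a DNA-binding factor that recognises the CArG box, and of its muscle co-activator myocardin, encoded by Myocd.

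The bladder samples carried a strong smooth muscle signal at both stages. The summed intensity of Actg2, Acta2 and Myh11, the smooth muscle actins and myosin heavy chain, was 164489 to 268725 in adult and 173804 to 229781 in newborn bladders, against 62993 in the whole newborn. Between the stages 0 of these 3 genes were called, beside 7.85% of all probe sets tested. Adult replicate 2 stood apart at the top of the scale: its highest value was 143536, against 74985.5 to 95909.7 on the other 5 bladder arrays, and its hybridization spike-ins read 2.33 times the lowest array's level. It gave the highest of the 6 bladder values for 14 of the 34 genes. Summed markers of male accessory glands (9 genes on the array) were 10224 and 10412 in adult replicates 1 and 3. The same sum was 242 in adult replicate 2, and newborn bladders gave 214 to 418. Median intensities ran from 209 to 312 in the bladders and stood at 434 in the whole newborn. Control probe sets at the 3' and 5' ends of Actb gave ratios of 3.84 to 5.15 in adult and 1.85 to 3.70 in newborn bladders. For Gapdh the ratios were 15.3 to 19.6 and 19.1 to 30.9. The whole newborn stood at 3.09 and 21.4. The part of these ratios in differences between groups or between probe sets of a gene was not tested. In whole-organ samples fewer muscle cells and less RNA per cell cannot be told apart.

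Between newborn and adult bladder the 34 genes were called about as rarely as all probe sets tested. Of 34 genes, 1 was higher and 1 lower in adult bladder (limma, adjusted p under 0.05), where 7.85% of all 23304 probe sets tested were called, 3.73% higher and 4.12% lower. Ldb3, a scaffold of the Z-line, rose by 2.15 on the log2 scale, and Ilk, a pseudokinase of adhesion plaques, fell by 1.12. Over all 74 tested probe sets of the 34 genes, 1 was higher and 2 were lower in adult bladder. The median difference over the 34 genes was -0.08, beside 0.02 over all probe sets tested. In 5 of the 34 genes every adult value lay above every newborn value, and in 5 below. Those patterns were found in 14.4% and 14.8% of all probe sets tested, which are similar shares. A missing call does not show equality, so intervals are given as well. For 22 of the 34 genes the 95% interval of the difference lay within 1 log2 unit of 0, compared with 26.1% of all probe sets tested. Over all tested probe sets of the 34 genes it was 34 of 74. The chosen probe sets are the most intense of each gene, whereas the 26.1% covers probe sets of every level. Against the whole newborn, in contrast, 24 genes were called higher in each stage of bladder, beside 2.3% of all probe sets for newborn and 4.4% for adult bladder. These are counts over 1 probe set per gene, the one of highest mean over arrays that are mostly bladder; over all tested probe sets of the 34 genes, 36 of 77 were higher and 4 lower in newborn bladder, and 39 of 77 higher and 4 lower in adult bladder. Cnn1, Lmod1, Myl6, Csrp1 and Ppp1r14a, called higher at both stages, lay below the whole newborn array's median. They passed the filter only through the bladders. The 34 genes were also chosen with earlier results of these data known. The 34 chosen probe sets had median differences of 2.26 for postnatal day 1 and 2.19 for adult bladder. In this text differences are in log2(intensity + 49), so 1 unit is a doubling, with the standard error (SE) from the fit.

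**Figure D1:**
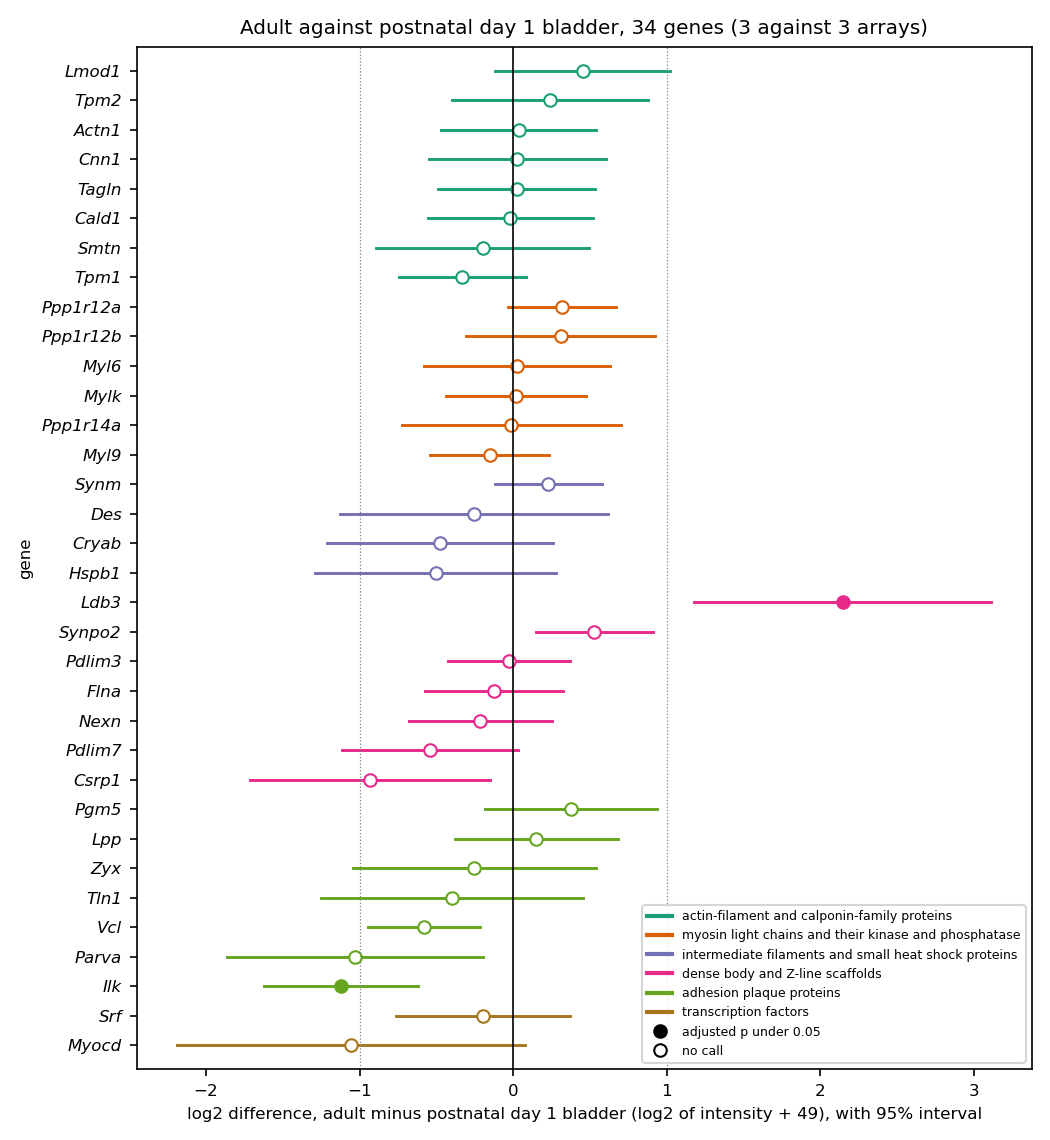
Log2 difference between adult and postnatal day 1 bladder (x axis, adult minus newborn, with its 95% interval) for the 34 genes, coloured by role, from 3 against 3 arrays. Filled points have an adjusted p under 0.05. Ldb3 at 2.15 lies far to the right and Ilk at -1.12 to the left, while 22 intervals stay between the dotted lines at -1 and 1.

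Srf and Myocd, the transcription factors of the group, were both present at either stage. Myocd read 4130, 8034 and 2914 in adult replicates 1 to 3, then 10425, 4760 and 17794 in newborn replicates 1 to 3, and 725 in the whole newborn. The stages overlapped, with newborn replicate 2 below adult replicate 2. The adult difference was -1.06 (SE 0.50, limma adjusted p = 0.242), and with array weights, which lower the say of noisy arrays, it was -1.44 with adjusted p = 0.0294. Srf read 9806, 6708 and 9983 in adult, 10380, 11475 and 8267 in newborn bladder, and 2070 in the whole newborn. Its stages overlapped too (-0.19, SE 0.25, adjusted p = 0.699). Both factors were higher in bladder than in the whole newborn by the test on their chosen probe sets. Their weaker probe sets were not called. That of Srf gave 0.32 in newborn and -0.07 in adult bladder (limma adjusted p = 0.76 and 0.947). That of Myocd gave 2.55 and 2.07 (limma adjusted p = 0.144 and 0.201). On the chosen probe sets the Srf differences were 2.24 in newborn and 2.04 in adult bladder (adjusted p = 0.0067 and 0.00738). For Myocd they were 3.64 and 2.58 (adjusted p = 0.0179 and 0.0489), and the adult call for Myocd was lost in 9 of 16 alternatives (adjusted p from 0.00988 to 0.0917 over all 16), among them the omission of any of the 3 adult arrays (2.66, 2.18 and 2.91, adjusted p = 0.0917, 0.0665 and 0.0538 for replicates 1 to 3) and of newborn replicate 1 (2.58, adjusted p = 0.0771).

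The promoter windows of called genes that hold the CArG box are shown because Srf binds that motif. RefSeq windows of GRCm38.p6, from 250 bases before to 50 after a transcript start, were matched by symbol for 29 of the 34 genes. Tagln, Myocd, Nexn, Cryab and Parva had none. An exact CArG box, which reads the same way on both strands, was found in 5 of the 29 genes (17.2%) and in 1.81% of all 27025 genes with a window. A match is a description of the letters in this window and not a measured binding site. The capitals below mark the box, and each stretch is cut to at most 45 bases on either side and ends before the transcript start.
Srf: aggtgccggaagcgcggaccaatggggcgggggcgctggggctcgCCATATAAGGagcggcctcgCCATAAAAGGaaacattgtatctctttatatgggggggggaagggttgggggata
Myl9: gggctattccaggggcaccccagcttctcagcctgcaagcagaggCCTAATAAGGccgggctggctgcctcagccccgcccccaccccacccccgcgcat
Vcl: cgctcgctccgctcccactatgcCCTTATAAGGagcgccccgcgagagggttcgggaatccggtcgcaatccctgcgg
Ldb3: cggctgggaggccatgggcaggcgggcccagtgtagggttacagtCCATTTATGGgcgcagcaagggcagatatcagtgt
Myl6: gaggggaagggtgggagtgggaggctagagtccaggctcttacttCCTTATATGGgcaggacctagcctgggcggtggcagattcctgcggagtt
The Srf stretch lies on the minus strand at chr17:46556170-46556289 and holds 2 boxes, which begin 82 and 62 bases upstream of the start. The Myl9 stretch is on the plus strand at chr2:156775258-156775357, with the box 161 bases upstream. The Vcl stretch is on the plus strand at chr14:20929148-20929225, with the box 227 bases upstream. For Ldb3, on the minus strand at chr14:34588682-34588761, the box begins 35 bases upstream, and for Myl6, on the minus strand at chr10:128493010-128493104, 50 bases upstream of 1 of its 2 listed starts.

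These 5 genes did not move alike between the stages. Ldb3 rose, Vcl stood at -0.58 and Myl9, Myl6 and Srf at -0.15, 0.02 and -0.19, the last 4 without a call. Against the whole newborn, Srf, Myl9, Vcl and Myl6 were called higher in newborn bladder and Ldb3 was called lower.

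Among the proteins of the actin filament, 0 of 8 were called between the stages by limma, beside 7.85% of all probe sets tested. An unadjusted p under 0.05 was seen in 0 of them, with differences from -0.33 (Tpm1) to 0.45 (Lmod1). Tagln encodes transgelin, an actin-bundling protein that is among the most used markers of smooth muscle. It read 38150.4, 59419.7 and 39989.7 in adult, 51315, 35477 and 47366 in newborn bladder, and 2449 in the whole newborn. The stages overlapped fully (0.02, SE 0.23, limma adjusted p = 0.964), and every bladder lay far above the whole newborn, at 17.7 times its level in newborn and 18 times in adult bladder on the fitted scale.

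Cnn1, which encodes calponin, an actin-binding brake on myosin, had the largest difference from the whole newborn of all 34 genes at both stages. It read 17367, 30611 and 18989.8 in adult, 25579, 18666 and 19967 in newborn bladder, and 387 in the whole newborn. That gave 5.61 (SE 0.38, adjusted p = 0.000278) for newborn and 5.64 (SE 0.38, adjusted p = 0.000152) for adult bladder. The stages themselves differed by 0.03 (95% interval -0.55 to 0.60).

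Smtn, the smoothelin gene, and Lmod1, whose product starts new actin filaments, were also higher than in the whole newborn at both stages, by 2.83 and 2.63 for Smtn and by 2.94 and 3.39 for Lmod1. Lmod1 read 3509 to 4725 in adult and 2817 to 3366 in newborn bladder. Its groups did not overlap, yet the difference of 0.45 was not called (adjusted p = 0.321), and 14.4% of all probe sets tested had every adult value above every newborn value. In the whole newborn Lmod1, Cnn1, Csrp1, Myl6 and Ppp1r14a lay below the array's median, so their fold differences depend on the pseudocount.

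Cald1, which encodes caldesmon, a further actin-linked brake on myosin, and Actn1, an alpha-actinin that cross-links actin, lay close to the array maximum. Cald1 read 63243, 110912 and 60547 in adult, 79943, 66234 and 83235 in newborn bladder, and 43192 in the whole newborn. Actn1 read 49389.8, 77407 and 44806 in adult, 61530.1, 50576 and 50879 in newborn bladder, and 19004 in the whole newborn. Stages overlapped for both, with adult replicate 2 the highest of the 6 bladders in each. Cald1 was not called against the whole newborn by this probe set (0.82 and 0.80, adjusted p = 0.201 and 0.184). Its second probe set, read at lower intensity, was called at both stages (2.95 and 3.23, adjusted p = 0.0434 and 0.0224). That second probe set was uneven in newborn bladder, at 12974, 11225 and 41771 in replicates 1 to 3. Without adult replicate 2 the first Cald1 probe set was called in newborn bladder (0.82, adjusted p = 0.0257). Actn1 was called at both stages (1.51 and 1.54, adjusted p = 0.0259 and 0.0174), and its newborn bladder call was lost without postnatal day 1 replicate 1 (1.41, adjusted p = 0.0668) or 2 (1.56, adjusted p = 0.0578). Both calls were also lost without the intensity trend (adjusted p = 0.0895 and 0.0692) and with the probe sets of Actn1 averaged (0.65 and 0.26, adjusted p = 0.636 and 0.851). Its other probe sets gave 0.59 and -0.16 in newborn and -0.59 and -0.16 in adult bladder, none called. Another Actn1 probe set differed by over 1 log2 unit from the first in the stage comparison, at -1.18 (SE 0.83, adjusted p = 0.44), with 88.8, 958 and 95.8 in adult and 334, 344 and 1501 in newborn bladder.

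Tpm1 and Tpm2 encode tropomyosins, the coiled proteins that lie along actin, and both genes make different forms in smooth and striated muscle. Their probe sets went in opposite directions against the whole newborn. The main Tpm1 probe set read 35559.5, 34737 and 33431 in adult, 50384, 45709 and 35653 in newborn bladder, and 4175 in the whole newborn, so that it was higher in bladder by 3.36 and 3.03. A second Tpm1 probe set read 199, 157 and 229.6 in adult, 454, 499 and 517 in newborn bladder, but 3333 in the whole newborn. It was lower in bladder by the test, at -2.65 in newborn and -3.80 in adult (adjusted p = 0.0116 and 0.00163). Another, with 8967 to 13697 in adult, 16227 to 26632 in newborn bladder and 40198 in the whole newborn, was lower in adult bladder (-1.92, adjusted p = 0.0119).

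For Tpm2 the main probe set read 59979.9, 125853 and 63715 in adult, 72425, 53211 and 75517 in newborn bladder, and 24003 in the whole newborn. It overlapped between the stages and was called higher than the whole newborn in adult bladder (1.70, adjusted p = 0.0295) and not in newborn bladder (1.46, adjusted p = 0.0665). Without postnatal day 1 replicate 1 the adult call was lost (adjusted p = 0.0508), and without adult replicate 2 newborn bladder was called (1.46, adjusted p = 0.00812). The Tpm2 probe set next in level was called higher at both stages (2.35 and 2.12, adjusted p = 0.00265 and 0.00311), with 41129 to 65496 in adult, 50772.5 to 66149 in newborn bladder and 11487.5 in the whole newborn. Another Tpm2 probe set, whose identifier ends in x_at, which marks probes that can match other transcripts, read 655, 704 and 1078 in adult, 3041, 5934 and 3394 in newborn bladder, and 15419 in the whole newborn. The 3 groups stood in a clear order with no overlap. This probe set fell by 2.25 from newborn to adult bladder (SE 0.35, limma adjusted p = 0.00689) and was below the whole newborn in both (-1.95 and -4.20, adjusted p = 0.0428 and 0.00104).

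Summed skeletal muscle markers had the same order as these tropomyosin probe sets. The summed level of 13 such markers was 20670 to 33366 in adult bladders, 87449.6 to 116692 in newborn bladders and 447943 in the whole newborn. Much of the bladder sums was Acta1 (15073 to 16692 in adult, 36496 to 68941 in newborn bladders, 92727 in the whole newborn). Myh2 added 13081 in adult replicate 2, beside 12661 in the whole newborn. Of the 9 tested between the stages, 6 were called lower in adult bladder and 0 higher. Of all probe sets tested, 4.12% were called lower and 3.73% higher. In adult bladders Myh3, the embryonic myosin, was at 14.1 to 16.45, below the pseudocount. The 8 cardiac markers summed to 9816 to 31592 in adult bladders, 47678 to 55964 in newborn bladders and 56115 in the whole newborn, but most of the bladder sums was Tnnt2 (8780.2 to 29910.2 in adult, 45889 to 54134 in newborn bladders, 6850.2 in the whole newborn). The other 7 cardiac markers summed to 1036 to 1744 in adult bladders, 1577 to 1829.7 in newborn bladders and 49265 in the whole newborn. Of the 8, 3 were tested between the stages and 0 called. The part of striated muscle in the tropomyosin values was not tested.

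**Figure D2:**
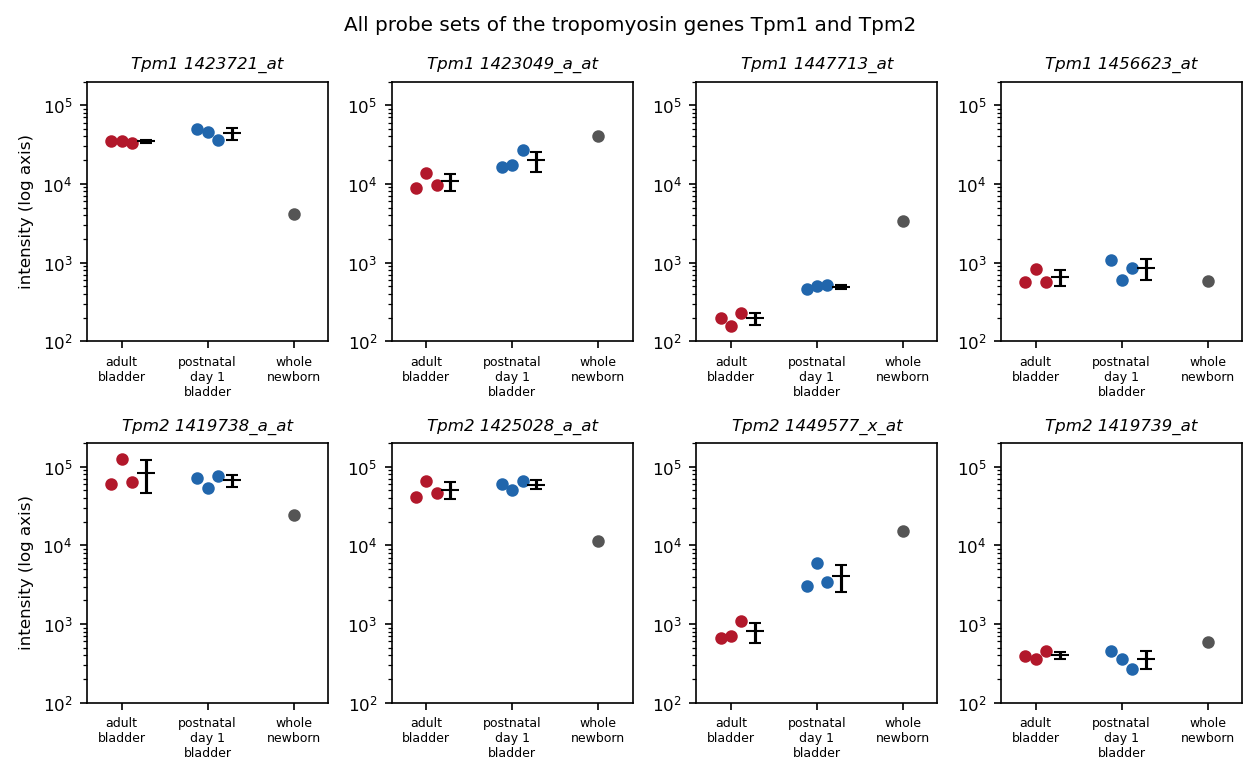
Intensity on a log axis for the 4 probe sets of Tpm1 (top) and the 4 of Tpm2 (bottom), with 1 point per array and the mean ± SD of the 3 adult and 3 newborn bladders beside them. The first Tpm1 probe set falls from 33431 to 50384 in the bladders to 4175 in the whole newborn, while the weaker Tpm1 probe set and the cross-matching Tpm2 probe set rise from adult bladder through newborn bladder to the whole newborn.

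The myosin light chains and the enzymes that act on them made up 6 of the genes. Of these, 0 were called between the stages by limma, where 7.85% of all probe sets tested were called. An unadjusted p under 0.05 was seen in 0. All 6 intervals lay within 1 log2 unit of 0, beside 7 of 8 for the actin-filament genes and 26.1% of all probe sets tested. On their chosen probe sets, all 6 were called higher than the whole newborn at both stages. Of all probe sets tested, 2.3% were called higher in newborn and 4.4% in adult bladder. Mylk, the myosin light chain kinase, read 64381, 102350 and 68380.5 in adult, 79283, 66761 and 81485 in newborn bladder, and 16594 in the whole newborn. The stages overlapped, and the difference was 0.02 (95% interval -0.44 to 0.48). Against the whole newborn Mylk was higher by 2.18 and 2.20, and its other 2 probe sets, read at lower intensity, were higher by 3.07 and 3.59 in newborn and by 3.23 and 3.45 in adult bladder.

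Myl9, the regulatory light chain that Mylk phosphorylates, read 42823, 50621 and 41827 in adult, 55689, 43804 and 51039 in newborn bladder, and 5558 in the whole newborn. Stages overlapped, and both were higher than the whole newborn, by 3.16 and 3.004. Myl6, the essential light chain, was read here only by a probe set of lower signal, 1656 to 2171 in the bladders and 327 in the whole newborn. The remaining probe sets of Myl6 also match other loci and were left out by the rule.

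Ppp1r12a, the targeting subunit of myosin phosphatase, was higher in every adult than in every newborn bladder, at 54387, 51916 and 55587 against 45515, 39695 and 44819, with 6481 in the whole newborn. That pattern was found in 14.4% of all probe sets tested. The Ppp1r12a difference of 0.32 was not called (SE 0.16, limma adjusted p = 0.254). Of the weaker Ppp1r12a probe sets, that next in level was called higher than the whole newborn at both stages (2.14 and 2.47). The others were not called, at 1.26 and 1.18 in newborn and 1.68 and 1.92 in adult bladder. The related Ppp1r12b overlapped between the stages (0.31, adjusted p = 0.547). Its calls against the whole newborn (3.13 and 3.44) were lost when its probe sets were averaged (0.15 and 0.38). Ppp1r14a, the phosphatase inhibitor known as CPI-17, read 1222, 1945 and 1654 in adult, 1737, 1193 and 1943 in newborn bladder, and 38.6 in the whole newborn. It was the only gene of the 34 whose whole newborn value lay under the pseudocount of 49, and its differences of 4.23 and 4.22 from the whole newborn therefore understate the ratio of the raw values.

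Des and Synm encode desmin and synemin of the muscle intermediate filaments. Synm was among the 6 largest differences from the whole newborn, with 52456, 57174 and 54199 in adult, 50759, 43621 and 45502 in newborn bladder, and 1664 in the whole newborn. Every adult value was above every newborn value, as in 14.4% of all probe sets tested. The stage difference of 0.23 was not called (SE 0.16, limma adjusted p = 0.419). Synm was higher than the whole newborn by 4.77 and 4.995 (adjusted p = 8.6e-05 and 4.3e-05).

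Des, by contrast, was not called against the whole newborn at either stage, at 1.88 (SE 0.55, adjusted p = 0.0759) and 1.63 (SE 0.55, adjusted p = 0.0942). It read 6471, 18153 and 7002 in adult, 14299, 9767 and 10075 in newborn bladder, and 3005 in the whole newborn, and adult replicate 2 alone exceeded the newborn bladders. Without adult replicate 2 both differences were called (1.88, adjusted p = 0.0107, and 1.15, adjusted p = 0.0439). Desmin is also made by skeletal and cardiac muscle, whose markers were high in the whole newborn, as given above, and their part in this value was not tested. Cryab and Hspb1, small heat shock proteins that protect muscle filaments, had no call in any of the 3 comparisons. Without adult replicate 2, their stage differences were called, at -0.85 for Cryab (adjusted p = 0.0408) and -0.92 for Hspb1 (adjusted p = 0.0373), and Cryab was lower in adult bladder than in the whole newborn (-1.77, adjusted p = 0.00531). Cryab was the only gene besides Ldb3 with a whole newborn value above every bladder, 22297 against 6061 to 14259. All 3 bladders lay below the whole newborn in 37.7% of all probe sets tested for newborn and 39.3% for adult bladder.

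**Figure D3:**
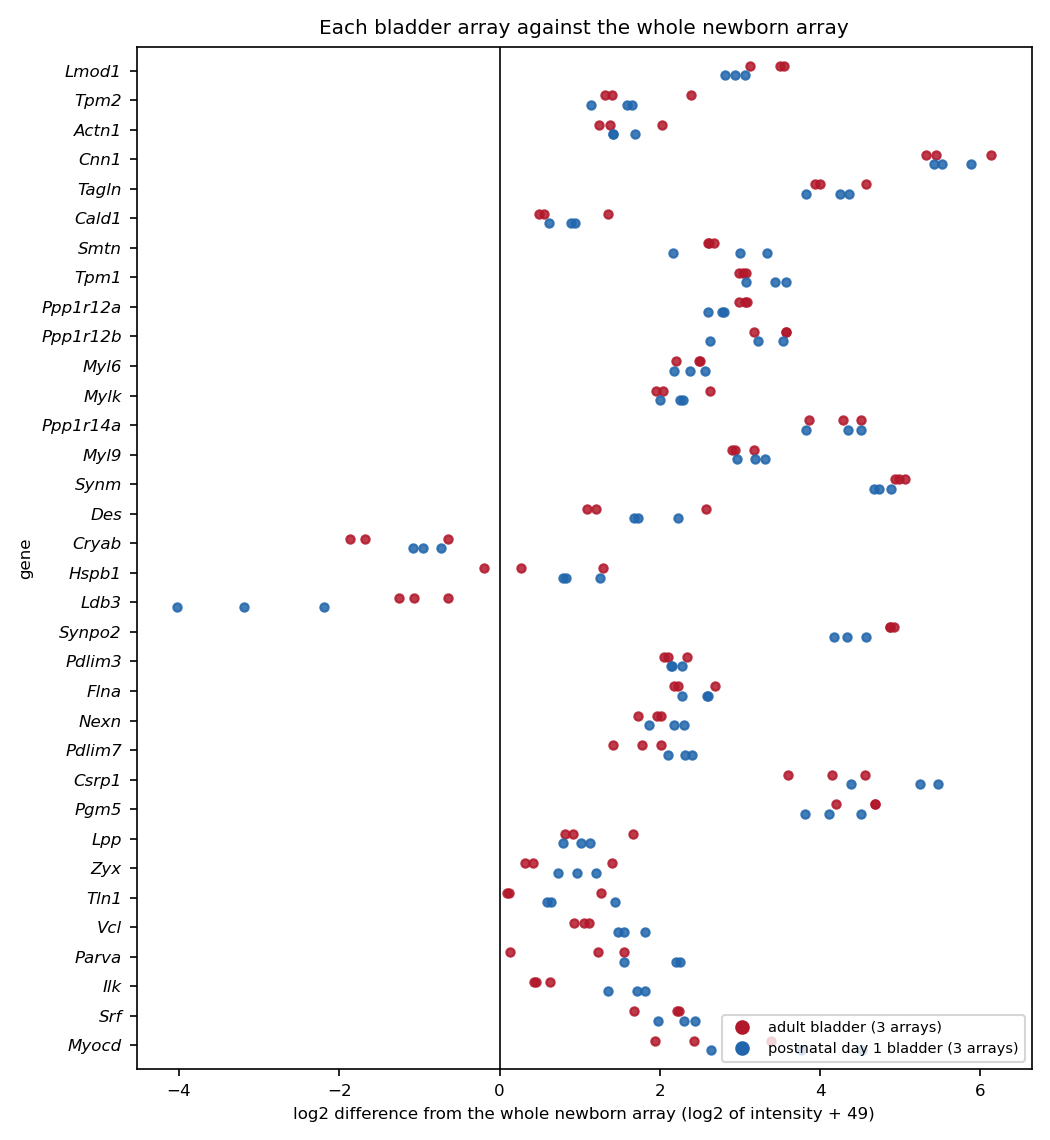
Difference of each bladder array from the single whole newborn array (x axis, log2 of intensity + 49) for the 34 genes, with adult bladders in red and postnatal day 1 bladders in blue. Averaged by stage, points for Cnn1, Synm, Synpo2, Csrp1, Ppp1r14a, Tagln and Pgm5 lie furthest to the right. Those of Ldb3 and Cryab lie left of the zero line.

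The scaffolds of dense bodies and Z-lines held the largest stage difference. Ldb3, known as Cypher or ZASP, joins alpha-actinin at the Z-line of striated muscle. It read 12975, 8465 and 9668 in adult, 4422, 2177 and 1202 in newborn bladder, and 20276 in the whole newborn. The lowest adult value was well above the highest newborn value, and the whole newborn was above them all. The mean rose from 2600.3 ± 1651 to 10369 ± 2336 (SD, n = 3), a log2 difference of 2.15 (SE 0.43, limma adjusted p = 0.0183). Against the whole newborn Ldb3 was lower in newborn bladder (-3.13, adjusted p = 0.016) and not called in adult bladder (-0.99, adjusted p = 0.342). With median centring the newborn bladder call was lost (-2.45, adjusted p = 0.0567).

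Its call between the stages rested on 3 arrays each. It was lost without adult replicate 1 (1.97, adjusted p = 0.074), without adult replicate 3 (2.18, adjusted p = 0.0656) and without newborn replicate 2 (2.12, adjusted p = 0.0672), when calls over all probe sets fell from 1829 to 689, 598 and 717. The difference was 1.26 when all Ldb3 probe sets were averaged (adjusted p = 0.0274). The other 2 Ldb3 probe sets gave no call between the stages, though their means were also higher in adult bladder: 1 read 483, 2270 and 629 in adult and 385, 420 and 866 in newborn bladder (0.72, SE 0.57, adjusted p = 0.491), the other 172 to 264 in adult and 13.7 to 202 in newborn bladder and was not tested. In the whole newborn they read 3810.3 and 3233. Of the 9 skeletal muscle markers tested between the stages, 6 were called lower in adult bladder and 0 higher, as given with the tropomyosins. The others tested, Myh1, Myh2 and Tnni2, stood at 0.002, -0.18 and -0.88 without a call. The part of striated muscle in the Ldb3 values was not tested.

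Synpo2, also called myopodin, is an actin-bundling protein of Z-lines and dense bodies. It read 55099, 53223 and 53470 in adult, 43321, 36806 and 32820 in newborn bladder, and 1775 in the whole newborn. All adult values were above all newborn values, as in 14.4% of all probe sets tested. The difference of 0.53 was not called (SE 0.17, limma adjusted p = 0.0924), and it was called with array weights (0.51, adjusted p = 0.023). Another Synpo2 probe set went the other way, with 1596, 3034 and 1846 in adult and 2683, 3588 and 3868 in newborn bladder (-0.67, adjusted p = 0.241). Against the whole newborn Synpo2 was higher by 4.36 and 4.89 (adjusted p = 0.000117 and 5e-05).

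Csrp1, a LIM-domain protein of the actin network, read 9487, 4877 and 7149.6 in adult, 15368, 17972 and 8387 in newborn bladder, and 356 in the whole newborn. The stages overlapped through newborn replicate 3, and the difference of -0.93 was not called (SE 0.35, adjusted p = 0.14). Averaging its 2 probe sets gave -0.91 with adjusted p = 0.0365. In newborn bladder Csrp1 was 5.04 above the whole newborn and in adult bladder 4.10 above it (adjusted p = 0.000769 and 0.00136).

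The other scaffolds were Pdlim3 and Pdlim7, which bind alpha-actinin or tropomyosin, Nexn, the actin-binding nexilin, and Flna, the filamin that links actin to the membrane. These 4 had stage differences from -0.54 to -0.03 without a call. Pdlim7 was the widest of them, with 3400.05 to 5189 in adult and 5521 to 6807 in newborn bladder (adjusted p = 0.24). Its adult values all lay below its newborn values, as in 14.8% of all probe sets tested. All 4 were called higher than the whole newborn at both stages, by 2.12 to 2.49 in newborn and 1.74 to 2.36 in adult bladder. Without adult replicate 3 the adult call of Pdlim7 was lost (1.72, adjusted p = 0.0544). Averaging its probe sets ended both calls (1.09 and 0.52, adjusted p = 0.0812 and 0.382), and its other probe sets, at 0.84 and 0.15 in newborn and -0.14 and -0.04 in adult bladder, were not called.

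Adhesion plaques join the actin filament to integrins in the membrane. Of the 7 plaque genes, 5 had stage differences below 0, and only Ilk was called, beside 7.85% of all probe sets tested. Ilk encodes integrin-linked kinase, the pseudokinase that ties parvin and PINCH proteins to integrin tails. It read 6079.6, 5984 and 6848 in adult, 11361, 14569.9 and 15680 in newborn bladder, and 4413 in the whole newborn. The groups were well apart, and the mean fell from 13870.2 ± 2243 to 6304 ± 474 (SD, n = 3), a difference of -1.12 (SE 0.22, limma adjusted p = 0.018). The call was lost without adult replicate 1 (-1.10, adjusted p = 0.0762) or 3 (-1.18, 0.0693), without newborn replicate 2 (-1.08, 0.0754) or 3 (-1.03, 0.0591), and with median centring (-1.14, 0.0557). The sign held in all 17 alternatives. Ilk was higher than the whole newborn in newborn bladder (1.63, adjusted p = 0.0155) and not called in adult bladder (0.51, adjusted p = 0.346).

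Parva, alpha-parvin, is the partner that couples Ilk to actin. It read 13568.1, 5029 and 10738 in adult, 21926, 21275 and 13568.5 in newborn bladder, and 4573 in the whole newborn, so that adult replicate 1 and newborn replicate 3 were level. The difference of -1.03 was not called (SE 0.37, adjusted p = 0.127). With both Parva probe sets averaged it was -1.29 with adjusted p = 0.0168. Parva was not called against the whole newborn (2.00 and 0.97, adjusted p = 0.0537 and 0.283), and without adult replicate 2 it was at both stages (2.00 and 1.39, adjusted p = 0.0119 and 0.0323), as it was in newborn bladder without postnatal day 1 replicate 3 (2.23, adjusted p = 0.0447). In all, 9 of 16 alternatives called it higher in newborn bladder (adjusted p from 0.00463 to 0.118 over the 16). The PINCH genes Lims1 and Lims2, picked as partners after their values were seen, gave 0.03 (adjusted p = 0.962) and 0.62 (adjusted p = 0.179).

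Vcl encodes vinculin, which binds talin and actin at plaques. It read 50692, 44625 and 48898 in adult, 82570.2, 68899 and 65307 in newborn bladder, and 23450.1 in the whole newborn. All newborn values were above all adult values, a pattern found in 14.8% of all probe sets tested. The difference of -0.58 narrowly missed the threshold (SE 0.16, limma adjusted p = 0.06). It was called without adult replicate 2 (-0.53, adjusted p = 0.0406), with array weights (-0.56, 0.0124), with the stricter filter (-0.58, 0.0457) and when both spike-in-rich arrays, adult replicate 2 and postnatal day 1 replicate 3, were left out (-0.60, 0.034). Vcl was higher than the whole newborn in newborn bladder (1.61) and adult bladder (1.03, adjusted p = 0.0263). The adult call was lost in 4 of 16 alternatives. Over all 16 the difference ran from 0.69 to 1.70 and the limma adjusted p from 0.00161 to 0.286. Among the 4 were the fits without adult replicate 1 (0.99, adjusted p = 0.0795) or adult replicate 3 (1.02, adjusted p = 0.0855). A weaker Vcl probe set gave 1.71 in newborn and 0.35 in adult bladder without a call (limma adjusted p = 0.228 and 0.819).

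**Figure D4:**
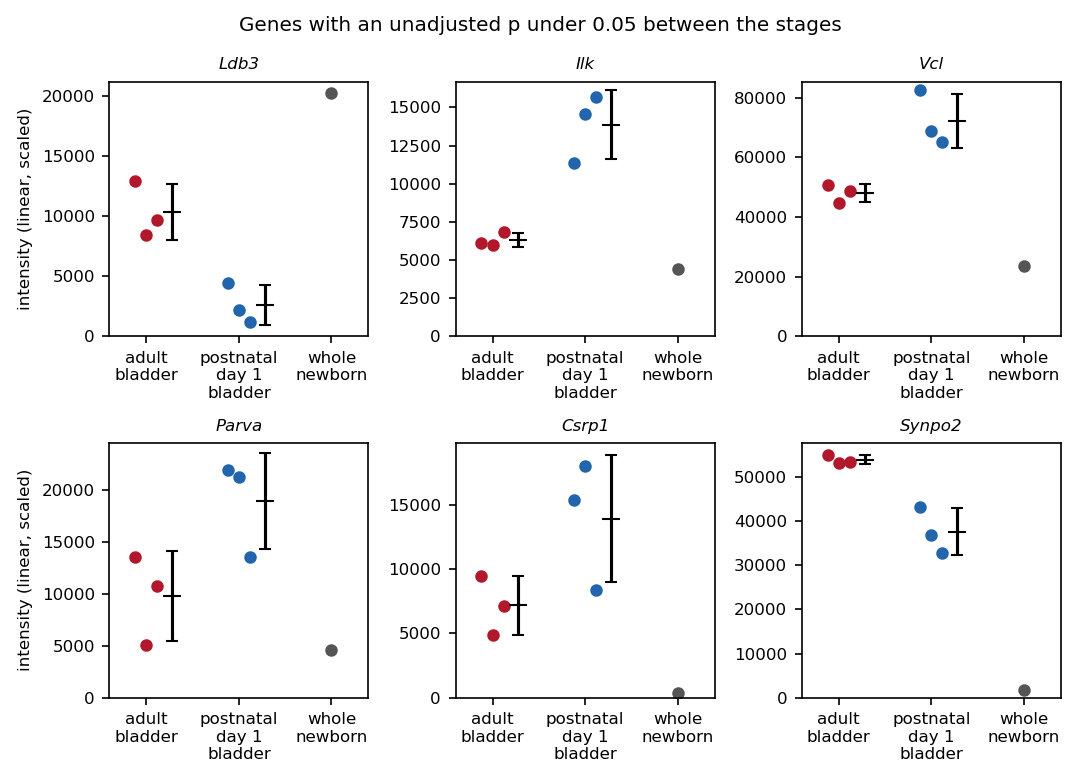
Intensity per array (linear axis from 0) for the 6 of 34 genes with an unadjusted p under 0.05 between the stages, with 1 point per array and the mean ± SD of 3 bladders. Ldb3 and Synpo2 are higher in adult bladder, while Ilk, Vcl, Parva and Csrp1 are higher in newborn bladder. Only Ldb3 and Ilk passed the adjusted threshold.

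Tln1, which encodes talin, the protein that switches integrins on, and Zyx, zyxin, were not called in any comparison. Tln1 read 3863, 8624 and 3808 in adult, 5581, 5407 and 9699 in newborn bladder, and 3557 in the whole newborn. A weaker Tln1 probe set differed more, with 1074, 212 and 1229 in adult, 2612, 3815 and 2609 in newborn bladder (-2.06, SE 0.56, limma adjusted p = 0.0558). Zyx read 1258 to 2726 in adult and 1685 to 2364 in newborn bladder.

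Pgm5, the phosphoglucomutase relative aciculin that sits at muscle plaques, was the plaque gene with the largest difference from the whole newborn. It read 20139, 14354 and 20202 in adult, 17829, 10995 and 13541 in newborn bladder, and 737 in the whole newborn. Stages overlapped (0.38, adjusted p = 0.408), and the differences from the whole newborn were 4.14 and 4.52 (adjusted p = 0.000484 and 0.000239). Lpp, a zyxin relative abundant in smooth muscle, read 60731, 102766 and 56707 in adult, 70919, 55788 and 65270.4 in newborn bladder, and 32277 in the whole newborn. This probe set was not called against the whole newborn (0.98 and 1.13, adjusted p = 0.127 and 0.0672), but it was without adult replicate 2 (0.98 and 0.86, adjusted p = 0.0154 and 0.0208). Of the other 7 Lpp probe sets, the 4 next in level were called higher at both stages, by 2.34 to 3.06 in newborn and 2.43 to 3.13 in adult bladder.

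Several of these genes were read near the top of the array's range, where differences can be compressed. In 12 of the 34 the chosen probe set reached at least 50% of its array's highest value on at least 1 array: Tagln, Mylk, Myl9, Tpm1, Tpm2, Cald1, Synpo2, Synm, Vcl, Actn1, Ppp1r12a and Lpp. Mylk lay at 71.3% to 91.2% of the maximum over the 6 bladders, Cald1 at 77.3% to 86.9% and Tpm2 at 65.5% to 87.7%. In the whole newborn 0 of the 34 reached 50%. Weaker probe sets of these genes did not move one way: of 28 tested in 10 of the 12 genes, 13 gave a larger and 15 a smaller difference from the whole newborn than the chosen one in newborn bladder, and 11 and 17 in adult bladder. Both weaker Mylk probe sets gave larger differences, whereas those of Actn1, Ppp1r12a, Synm and Tpm1 all gave smaller ones. Over all 12 the median difference between newborn bladder and the whole newborn was 2.46, beside 2.26 for the other 22. The part of compression in these differences was not tested.

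**Figure D5:**
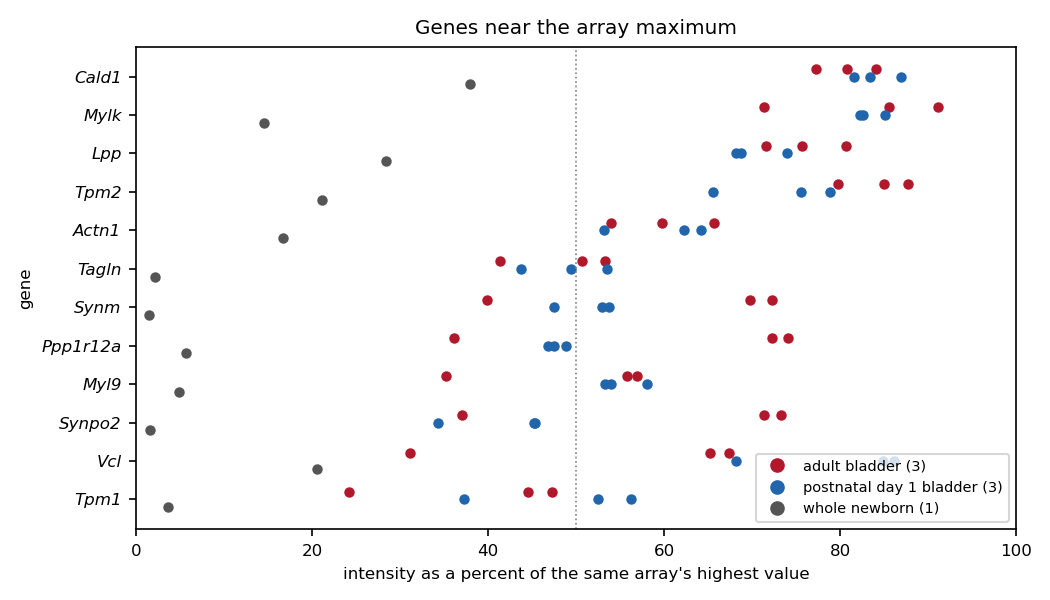
Intensity as a percent of the same array's highest value (x axis) for the 12 genes that reached 50% on at least 1 array, with 3 adult bladders, 3 postnatal day 1 bladders and the whole newborn. Cald1 and Mylk stay above 70% in all 6 bladders, and the whole newborn points all lie under 50%.

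Against the whole newborn, 24 of the 34 genes were called higher and 1 lower in newborn bladder, where 7.42% of 28316 probe sets were called, 2.3% higher and 5.12% lower. In adult bladder 24 were called higher and 0 lower by limma (1, Cryab, was lower at an unadjusted p under 0.05), where 11.6% of 28062 were called, 4.4% higher and 7.2% lower. The median differences of 2.26 and 2.19 stand beside -0.15 and -0.17 over all probe sets tested. Both comparisons share the reference array, and its spread was taken from the bladders. In all, 23 genes were called higher in both, Ilk only passed in newborn and, by its chosen probe set, Tpm2 only in adult bladder. The differences between those pairs of calls are the stage differences given above, of which that of Ilk was called and that of the chosen Tpm2 probe set was not.

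The genes without a call in either comparison with the whole newborn were 8: Des, Cald1, Cryab, Hspb1, Tln1, Zyx, Lpp and Parva. All but Cryab had differences above 0. Centring the arrays on their medians moved the median of all probe sets by over 0.1, from -0.15 to 0.53 in newborn and from -0.17 to 0.50 in adult bladder. Calls over all probe sets then went from 650 higher and 1451 lower to 1651 and 859 in newborn bladder, and from 1235 and 2020 to 2680 and 1216 in adult bladder. With quantile normalization they were 1186 and 1266 in newborn, and 1968 and 1839 in adult bladder. Of the 34 genes, centring called 30 higher and 0 lower in newborn bladder and 27 and 0 in adult bladder, and quantile normalization 28 and 1, then 26 and 0. Other alternatives gave fewer: averaging the probe sets of a gene left 22 higher in newborn and 17 in adult bladder, and a fit without the intensity trend left 23 and 20. With single arrays left out, the count higher ran from 23 to 29 in newborn and from 21 (without adult replicate 3) to 26 in adult bladder.

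Relatives and partners outside the 34 genes were read from 5 lists. Their counts stand beside 3.73% of all probe sets tested called higher in adult bladder and 4.12% called lower. Of 32 listed thin filament and Z-type proteins, 22 were tested, 5 fell from newborn to adult bladder and 0 rose, with a median of -0.66. These were Vim, the intermediate filament of mesenchymal cells (-1.27, limma adjusted p = 0.00844), Tpm4, a tropomyosin widespread outside muscle (-1.397, 0.00997), Cnn2, the calponin of non-muscle cells (-1.23, 0.0219), Pdlim1 (-1.29, 0.0238) and Fhl2, a LIM-domain cofactor (-1.11, 0.0394), the last of them named after its value was seen. Calls outside the 34 genes, and those of further probe sets, were not repeated under the alternatives. The smooth muscle relatives among the 34 genes, Tpm1, Tpm2, Cnn1 and Des, had no call on their chosen probe sets. Fibroblast markers (6 genes) summed to 165735 to 300843 in adult and 207742 to 274894 in newborn bladders, with 1 of 6 lower in adult bladder. Their part in the fall of Vim and Cnn2 was not tested.

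The dystrophin complex, which anchors the muscle membrane to the matrix, had 12 of 15 listed genes tested. Of these, 3 were higher in adult bladder and 0 lower, beside 3.73% and 4.12% of all probe sets tested. The median was 0.75. Sspn, sarcospan, was higher in every adult (13295 to 18638) than in every newborn bladder (2265 to 3206), by 2.50 (adjusted p = 0.00131). Sgcb, a sarcoglycan, rose by 1.54 (adjusted p = 0.0207) and Dtna, dystrobrevin, by 1.34 (adjusted p = 0.0311). Utrn, the dystrophin relative utrophin, was at 0.79 without a call (adjusted p = 0.131).

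In the light chain control list, 14 of 24 listed genes were tested and 1 was called, Arhgef12, an exchange factor that activates RhoA, which rose by 0.93 (adjusted p = 0.0367). Among focal adhesion proteins, 21 of 25 were tested and 1 was called, Tes, testin, which rose by 1.20 (adjusted p = 0.0168). Trip6, a zyxin relative, was at -0.98 without a call (adjusted p = 0.0522). Among Srf and myocardin co-factors, 18 of 21 were tested and 2 were called, the muscle factors Mef2d (1.48, adjusted p = 0.0231) and Mef2c (1.401, adjusted p = 0.0375), both higher in adult bladder. These lists had median differences of -0.12, 0.13 and 0.02. Of all probe sets tested between the stages, 7.85% were called in either direction.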

How the data were processed

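The authors deposited intensities on a linear scale, 1 value per probe set and array, from GCOS, per the submitters' processing notes; for its version, summary method and detection calls the entry is: not given in the sources used here. Per the deposited values, each array's mean without the highest and lowest 2% was close to 1500, so arrays were scaled to a common mean. Of 45101 probe sets, 64 controls were left out.

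Values were analysed as log2(intensity + 49), 49 being the 20th percentile of all values, and were not centred. Differences were tested two-sided with limma 3.58.1 (R 4.3.3; lmFit, then eBayes with an intensity trend), p-values were adjusted by Benjamini-Hochberg over every probe set tested, and adjusted p under 0.05 was a call. The stages were compared over the 6 bladder arrays, for probe sets that exceeded the array median on 3 or more. The whole newborn was compared in a fit of all 7 arrays, for probe sets above the median on 1 or more of those compared; the lone reference was taken to vary as much as the bladders do. The number of arrays limits the precision. The fits were tested on simulated data.

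Genes given with every value were those called between the stages, the 6 largest differences in each comparison with the whole newborn, those near the array maximum, Srf and Myocd. Also given were genes whose probe sets were called in opposite directions or differed by over 1 log2 unit in the stage comparison. Up to 4 genes were named per partner list by adjusted p, with others where said. Markers of smooth, skeletal and cardiac muscle, fibroblasts and accessory glands are given in the text. Markers of urothelium summed to 149198 to 155860 in adult and 138765 to 172565 in newborn bladders, those of pericytes to 49587 to 54554 and 54680 to 61170, and those of endothelium to 3564 to 4520 and 4150 to 5752. The members, lists and rules were chosen with earlier results of these data known. Alternatives were 2 other pseudocounts (9 and 165), median centring, quantile normalization, filters at the 70th percentile or none, no trend, array weights, averaged probe sets, all 7 arrays in the stage fit, and leaving out arrays.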

Additional observations from a re-analysis of the deposited data

How the results depend on the processing

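Over the 17 alternatives for the stages, Ldb3 and Ilk kept their sign, and 7 genes without a call were called in at least 1. The count of genes higher in adult bladder was 2 with array weights and otherwise 1, and ranged from 0 to 1 when single bladder arrays were left out. The count lower in adult bladder was 0 with median centring, 2 with the filter at the 70th percentile (Ilk, Vcl), 3 with averaged probe sets (Csrp1, Ilk, Parva), 5 with array weights (Vcl, Csrp1, Myocd, Cryab, Ilk) and 6 when both spike-in-rich arrays were left out (Vcl, Csrp1, Cryab, Hspb1, Ilk, Parva). It ranged from 0 to 4 when single arrays were left out, with 4 without adult replicate 2 (Vcl, Cryab, Hspb1, Ilk). The causes were not tested. In newborn bladder against the whole newborn, 20 of 25 called genes were called in all 16 alternatives, and the count lower was 0 with median centring. In adult bladder, 17 of 24 were, and the count lower was 1 with array weights, with averaged probe sets, when both spike-in-rich arrays were left out and without adult replicate 2, with a range of 0 to 1 over single arrays left out. Averaging probe sets turned the adult difference from the whole newborn for Tpm1 to -0.64 and for Tpm2 to -0.22, neither called, and this average mixes probe sets of opposite direction. Over all probe sets, the main stage count of 1829 ranged from 598 to 2219 with single arrays left out and was 4660 with array weights, 1146 with averaged probe sets, 1258 without a filter; against the whole newborn it ranged from 1326 to 4172 for newborn and from 1799 to 8364 for adult bladder. The labels pair no adult with a newborn bladder, so the stages were compared unpaired. Replicate numbers in this text follow the order of the samples and are not given by the labels. With 3 arrays a group and 1 reference array, differences of less than about 1 log2 unit were often not detectable, and genes near the array maximum may be compressed.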
